A study of Mus musculus with 6 samples.

Results

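Imatinib is used for its action on KIT, but it also binds other kinases and a flavoenzyme, and the mRNA of these other targets was followed in sorted γδ T cells from mouse gastrointestinal stromal tumors (GIST). The targets were taken as a fixed set of 8 genes, Abl1, Abl2, Csf1r, Pdgfra, Pdgfrb, Ddr1, Ddr2 and Nqo2, which are 8 of the 53153 gene symbols in the read-count table, and all 8 passed the filter on low counts. Bulk RNA-seq was made from 3 libraries of mice that drank imatinib, 600 mg/L for 1 week, and 3 libraries of mice on vehicle. Mice of both groups were C57BL/6J, were 8 to 10 weeks old and carried the same activating allele, labelled KitV558del/+, so the controls bore GIST as well and there was no tumor-free reference. By the study's methods the libraries came from a CD45+CD3+NK1.1-TCRγδ+ sort, whereas the design text of the series names regulatory T cells. The labels do not say that each library was a separate mouse, so that p-values measure the spread between libraries.

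ABL1 and ABL2 are non-receptor tyrosine kinases that relay signals from surface receptors to actin and, in T cells, from the antigen receptor. The others of the kinase group are receptors. CSF1R, which binds CSF1 and IL-34, keeps macrophages alive, PDGFRα and PDGFRβ bind PDGF dimers on fibroblasts and pericytes, and DDR1 and DDR2 are receptors for collagen. CSF1R and both PDGF receptors belong to the same receptor class as KIT. NQO2 is a quinone reductase and the only target in the set that is not a kinase.

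Counts of named genes totaled 21333897 to 23013208 per imatinib library and 21493848 to 25214210 per vehicle library. RNA of T cells was present in every library, with 10 T cell markers summing to 2059 to 2921 counts per 1000000 counts (CPM) on imatinib and 1025 to 1761 CPM on vehicle. By edgeR's test 7 of the 10 passed as higher, against 6.15% of all genes tested. Of the CD3 chains, Cd3d passed (adjusted p = 0.0338), though in only 1 of 6 fits without 1 library. Cd3e and Cd3g did not pass (adjusted p = 0.0926 and 0.111), and their groups overlapped. Trdc, the constant gene of the T cell receptor δ chain, was at 1237, 850 and 1038 CPM on imatinib, against 505, 673 and 373 CPM on vehicle. RNA of other cells was present too. The 14 macrophage markers summed to 5921 to 11122 CPM on imatinib and 9971 to 13032 CPM on vehicle, the 12 fibroblast markers to 972 to 1631 and 475 to 713 CPM, the 11 pericyte and smooth muscle markers to 29.9 to 60.4 and 42.5 to 80 CPM, and the 10 epithelial markers to 323 to 711 and 240 to 508 CPM. The 7 B and plasma cell markers ranged most, from 18222 to 27401 CPM on imatinib and from 3278 to 26773 CPM on vehicle. No marker of these lists was at 0 in every library. In bulk RNA, fewer cells of a type and less RNA per cell cannot be told apart.

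After 1 week of imatinib, Abl1 and Abl2 fell and Ddr1 rose, whereas Csf1r, Pdgfra, Pdgfrb, Ddr2 and Nqo2 did not pass the test. Each gene was tested by edgeR's quasi-likelihood test over 16621 genes with Benjamini-Hochberg adjustment, and "rose" and "fell" are used for genes with an adjusted p under 0.05. So 3 of 8 targets were called, against 14.6% of all genes tested, 1 as higher, against 6.15% of all genes, and 2 as lower, against 8.42%. The groups did not overlap for 4 targets (Abl1, Abl2, Ddr1 and Pdgfrb), against 37.7% of all genes. The median log2 fold change was 0.69 over the 8 targets and 0.01 over all genes, with 5 of 8 targets above 0. Of the 3 calls, that of Abl1 was kept in each of 6 fits that left out 1 library, and those of Abl2 and Ddr1 in 1 of 6 each. DESeq2 called 6 of the 8 targets, against 16.8% of all genes it tested, 4 as higher (7.09% of all genes) and 2 as lower (9.7%), adding Pdgfra, Pdgfrb and Ddr2 as higher (adjusted p = 0.0463, 0.00309 and 0.0312). When libraries were scaled to CD3 counts in place of TMM, the median of all genes moved to -0.72 and the calls over all genes were 135 higher and 4678 lower, against 1022 and 1399 with TMM. On that scaling Abl1 lay at -1.53, Abl2 at -1.34, Pdgfrb at 0.42, Pdgfra at 0.45 and Ddr2 at 0.75. Ddr1 lost its call (0.26, adjusted p = 0.604), Csf1r gained one (-1.17, adjusted p = 0.0286) and Nqo2 changed sign (-0.40). Relative to that median Abl1 lay at -0.82, Abl2 at -0.63, Csf1r at -0.45 and Nqo2 at 0.32. Ddr1 lay at 0.98, Pdgfrb at 1.13, Pdgfra at 1.17 and Ddr2 at 1.47. A change of scale moves all genes of a library together. Values relative to the median are therefore close to those with TMM by construction and are no separate test.

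**Figure D1:**
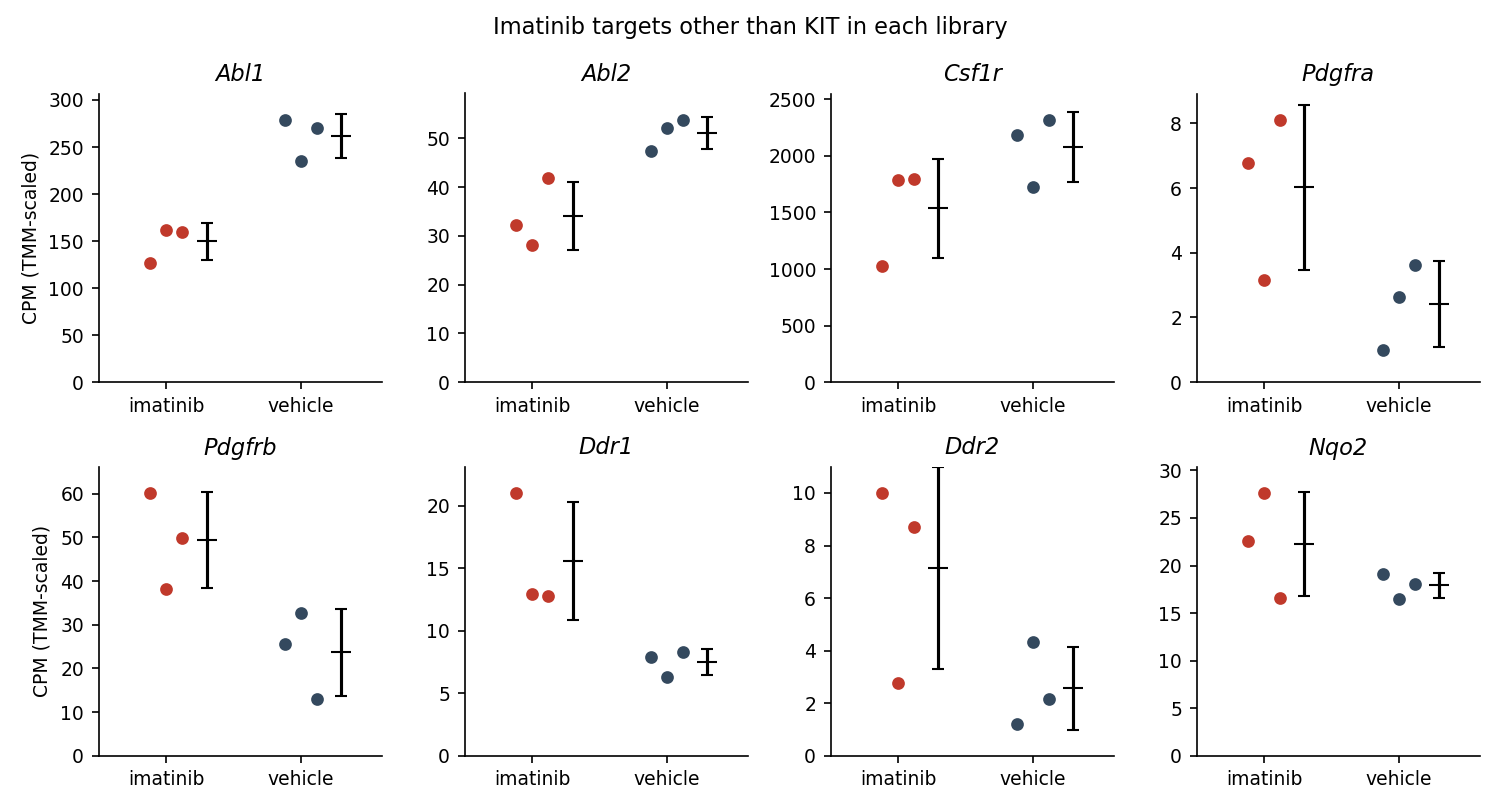
Level of each target in CPM (TMM-scaled, linear axes from 0) in the 3 imatinib libraries (red, left) and the 3 vehicle libraries (dark, right), with the mean ± SD beside each group. The imatinib libraries of Abl1 (127 to 162 CPM) lay below the vehicle libraries (235 to 279 CPM), whereas those of Ddr1 (12.8 to 21 CPM) lay above (6.27 to 8.27 CPM).

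Per length of exon, Csf1r was by far the highest target, at 266 ± 76.2 CPM per kb on imatinib and 360 ± 53.7 CPM per kb on vehicle (SD, n = 3 each), and it made up 82.9% to 91.5% of the summed level of the 8 targets in a library. Abl1 came next, at 12.9 ± 1.68 CPM per kb on imatinib and 22.5 ± 1.99 on vehicle. On imatinib, Pdgfrb followed with 9.01 ± 2 CPM per kb, above the ranges of Nqo2 (5.5 ± 1.37), Ddr1 (3.26 ± 0.985) and Abl2 (3.16 ± 0.648), of which Nqo2 and Ddr1, and Ddr1 and Abl2, overlapped. On vehicle, Abl2 (4.73 ± 0.306 CPM per kb), Nqo2 (4.43 ± 0.32) and Pdgfrb (4.32 ± 1.82) came after Abl1 with overlapping ranges, and Ddr1 (1.57 ± 0.223) lay below them. Ddr2 and Pdgfra were lowest in both groups, at 0.772 ± 0.415 and 0.6 ± 0.255 CPM per kb on imatinib and 0.277 ± 0.171 and 0.24 ± 0.133 on vehicle, and their ranges overlapped each other. Both rested on few reads, down to 24 counts of Pdgfra and 30 of Ddr2 in vehicle 1.

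**Figure D2:**
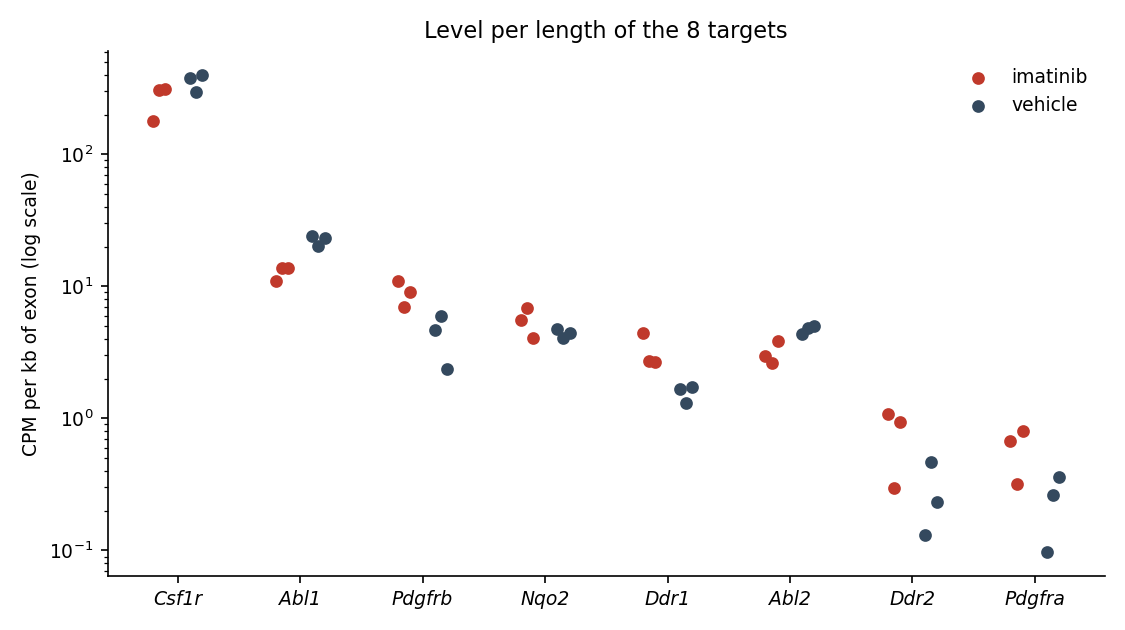
Level per length of the 8 targets (CPM per kb of exon, log axis) in each imatinib library (red, left) and each vehicle library (dark, right), ordered by the mean on imatinib. Csf1r lay between 178 and 402 CPM per kb in the 6 libraries, and Ddr2 and Pdgfra between 0.0977 and 1.08.

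Abl1, on chromosome 2 from 31688376 to 31804227 (GRCm38, GENCODE M21), was at 127, 162 and 160 CPM in imatinib 1, 2 and 3, against 279, 235 and 270 CPM in vehicle 1, 2 and 3. The groups did not overlap, with every imatinib library lower, at 150 ± 19.5 and 261 ± 23.1 CPM (SD, n = 3 each). Abl1 fell by 0.80 on the log2 scale (95% interval -1.09 to -0.51, standard error 0.13, adjusted p = 0.00928), with adjusted p = 0.0069 to 0.0372 over the 6 fits without 1 library. Its relative Abl2, on chromosome 1 from 156558786 to 156649568, was at 32.3, 28.2 and 41.8 CPM on imatinib, against 47.4, 52.1 and 53.8 CPM on vehicle. Abl2 fell by 0.58 (95% interval -0.94 to -0.23, adjusted p = 0.0401), also with no overlap, but the call was lost without imatinib 1 (adjusted p = 0.0891), imatinib 2 (0.0539), vehicle 1 (0.0739), vehicle 2 (0.111) or vehicle 3 (0.115). The count of Abl1 per count of Abl2 was 3.94, 5.74 and 3.83 on imatinib and 5.89, 4.52 and 5.01 on vehicle. These ranges overlapped, and the balance of the kinase pair differed by -0.21 on the log2 scale (exact two-sided permutation test, p = 0.3, adjusted p = 0.8 over 3 such pairs).

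The sequence before a start site is shown for both Abl kinases because these related genes were lower together. Each run is 250 bases before a RefSeq start (GRCm38.p6, plus strand, the most upstream entry of the promoter table), with GC boxes (GGGCGG on either strand) in capitals. They lie at chr2:31759689-31759938, within the Abl1 gene, and at chr1:156558537-156558786, at the start of Abl2.
Abl1: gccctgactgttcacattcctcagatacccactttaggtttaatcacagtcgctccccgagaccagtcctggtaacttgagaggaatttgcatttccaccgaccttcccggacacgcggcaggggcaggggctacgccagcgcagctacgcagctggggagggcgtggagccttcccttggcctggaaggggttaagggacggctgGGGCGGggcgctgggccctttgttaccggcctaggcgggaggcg
Abl2: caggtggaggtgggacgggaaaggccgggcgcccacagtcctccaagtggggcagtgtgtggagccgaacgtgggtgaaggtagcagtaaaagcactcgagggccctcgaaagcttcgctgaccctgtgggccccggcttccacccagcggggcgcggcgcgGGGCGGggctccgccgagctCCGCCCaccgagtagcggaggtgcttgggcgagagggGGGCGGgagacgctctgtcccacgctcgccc
The Abl1 run has a GC content of 63.2% and 1 GC box, and the Abl2 run 71.6% and 3 GC boxes, where the median GC content of 32536 promoters of this length was 52.4% and 33% of them held a GC box. Neither run holds TATAAA, found in 12.3% of all promoters, or CCAAT, found in 33.8%. These matches describe the letters of the runs and were not tested as binding sites.

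The fall of the Abl kinases was measured while the sum of T cell markers was higher. Both were therefore also set against markers within each library, a ratio that does not depend on scaling. Per 1000 counts of the CD3 chains Cd3d, Cd3e and Cd3g, Abl1 had 140, 249 and 190 counts on imatinib, against 547, 370 and 760 on vehicle. Abl2 had 35.5, 43.4 and 49.6 on imatinib, against 92.9, 81.9 and 152 on vehicle. Neither gene overlapped between the groups on this measure, with differences of -1.51 and -1.30 on the log2 scale (each p = 0.1 by an exact two-sided permutation test, the smallest that 3 against 3 libraries can give, and adjusted p = 0.45 over 9 such ratios). Per 1000 counts of the 14 macrophage markers, a ratio chosen after the data were seen, Abl1 had 21.5, 14.5 and 16.3 counts on imatinib and 22.5, 23.6 and 20.7 on vehicle, and Abl2 had 5.45, 2.54 and 4.25 on imatinib and 3.82, 5.22 and 4.13 on vehicle. These ranges overlapped, with differences of -0.37 and -0.16 (exact two-sided permutation test, p = 0.2 and 0.9). The part of the macrophage share in the fall of Abl1 and Abl2 was not tested.

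Of 18 adaptors, substrates and regulators of the ABL kinases, 2 fell and 1 rose, where 8.42% of all genes fell and 6.15% rose, around a median log2 fold change of 0.12. At an unadjusted p under 0.05, 2 were lower and 4 higher. By edgeR's test 4639 of all 16621 genes had an unadjusted p of up to 0.0365, and 6405 of up to 0.0882. The count of all genes at 0.05 lies between these, which hold both directions together. DESeq2 called 2 lower and 2 higher, against 9.7% and 7.09% of all genes it tested. Sh3bp2, an adaptor that binds ABL1, was at 38.8, 80.6 and 58.1 CPM on imatinib, against 122, 125 and 130 CPM on vehicle (log2 fold change -1.09, adjusted p = 0.0256). Crk, an adaptor phosphorylated by ABL, was at 43.4, 57.2 and 53.8 CPM on imatinib, against 68.7, 74 and 74.9 CPM on vehicle (log2 fold change -0.49, adjusted p = 0.0342). Ywhaz, a 14-3-3 protein, rose by 0.39 (adjusted p = 0.0456) but lay at -0.33 on CD3 scaling (adjusted p = 0.501), which is 0.38 above the median of all genes there. The calls held in 2 of 6 fits without 1 library for Sh3bp2, in 1 for Crk and in none for Ywhaz, with adjusted p of up to 0.0861, 0.103 and 0.163. Crkl, the close relative of Crk, was at 88.4 to 97.9 CPM on imatinib and 78.3 to 85.9 CPM on vehicle (log2 fold change 0.18, adjusted p = 0.245). The genes most like Abl1 over the 6 libraries, by Pearson's r of log2 CPM among 12994 genes, were Tmem184b (r = 0.9998), Slc25a25 (0.998) and Zfp217 (0.998), and those most like Abl2 were Unk (0.996), Zfp318 (0.995) and Caap1 (0.995). Such values reflect the group difference and the shared libraries, and 103 genes lay within 0.02 of the r of Tmem184b.

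Csf1r, the CSF1 receptor of macrophages, on chromosome 18 from 61100598 to 61132149 (GRCm38), was at 1029, 1786 and 1796 CPM on imatinib, against 2184, 1729 and 2320 CPM on vehicle. Imatinib 1 was lowest by far, and imatinib 2 and 3 lay above vehicle 2, so the groups overlapped. The log2 fold change of -0.43 did not pass the test (95% interval -0.95 to 0.08, standard error 0.22, adjusted p = 0.229). Csf1r varied with the macrophage markers. Per 1000 counts of the 14 markers it had 174, 161 and 182 counts on imatinib and 176, 173 and 178 on vehicle, which differed by -0.03 on the log2 scale (exact two-sided permutation test, p = 0.8, adjusted p = 0.9 over 9 ratios). Between the highest and the lowest library this ratio varied 1.14-fold, where the CPM of Csf1r varied 2.26-fold. Without C1qa, the most counted marker, the ratios were 213, 206 and 225 on imatinib and 236, 230 and 233 on vehicle, a difference of -0.12 with no overlap (exact two-sided permutation test, p = 0.1).

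The genes most like Csf1r over the 6 libraries were Tlr7 (r = 0.999), Cx3cr1 (0.993) and Cybb (0.993). They encode an endosomal RNA sensor, the fractalkine receptor and the oxidase subunit of phagocytes, and Cx3cr1 is itself on the macrophage list. Of the 14 macrophage markers, only Lyz2 and Mrc1 passed the test, both higher with TMM and at 0.02 and -0.05 on CD3 scaling (0.74 and 0.67 above the median of all genes there), while the median of the list was -0.44, close to the value of Csf1r. On CD3 scaling Csf1r passed as lower (-1.17, adjusted p = 0.0286), on which most calls over all genes were lower. A gene on the opposite strand, Hmgxb3, shares 873 exonic bases (15.1%) with Csf1r and had 528 to 878 counts, against 22758 to 53898 of Csf1r.

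The ligands of CSF1R were low and did not pass the test. Csf1 was at 10, 11.7 and 7.84 CPM on imatinib, against 11.6, 9.4 and 22.6 CPM on vehicle (log2 fold change -0.56, adjusted p = 0.295), with vehicle 3 alone standing out. Il34 was at 0 to 2.12 CPM on imatinib and 0.286 to 1.21 CPM on vehicle (adjusted p = 0.697). Of 12 genes of CSF1R signaling, 2 fell, where 8.42% of all genes fell, and no other passed, with a median of -0.24. At an unadjusted p under 0.05, 4 were lower and 0 higher. By edgeR's test, in both directions together, 4639 of all 16621 genes had an unadjusted p of up to 0.0365 and 6405 of up to 0.0882. DESeq2 called 3 lower and 0 higher, against 9.7% and 7.09% of all genes it tested. Inpp5d, the lipid phosphatase SHIP1, was at 375, 453 and 461 CPM on imatinib, against 644, 556 and 602 CPM on vehicle (log2 fold change -0.48, adjusted p = 0.0308). Socs1, a feedback inhibitor of cytokine signaling, was at 14.4, 18.9 and 17.2 CPM on imatinib, against 32.5, 24.3 and 23.2 CPM on vehicle (log2 fold change -0.66, adjusted p = 0.039). Each call held in 1 of 6 fits without 1 library, with adjusted p of up to 0.0936 and 0.126.

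Pdgfrb, which encodes PDGFRβ and lies before Csf1r on chromosome 18 from 61045150 to 61085061, was at 60.1, 38.2 and 49.8 CPM on imatinib, against 25.6, 32.6 and 12.9 CPM on vehicle. All imatinib libraries lay above all vehicle libraries, at 49.3 ± 10.9 and 23.7 ± 9.96 CPM (SD, n = 3 each), but the log2 fold change of 1.06 did not pass the test (95% interval 0.25 to 1.87, adjusted p = 0.0832). It passed in none of the 6 fits without 1 library and did pass by DESeq2 (1.05, adjusted p = 0.00309). Its paralog Pdgfra, on chromosome 5 from 75152292 to 75198215, was at 6.78, 3.17 and 8.11 CPM on imatinib, against 0.979, 2.63 and 3.62 CPM on vehicle. Imatinib 2 lay within the vehicle range, and the log2 fold change of 1.32 did not pass the test (95% interval 0.14 to 2.51, adjusted p = 0.122). Counts of Pdgfra per count of Pdgfrb were 0.113, 0.0829 and 0.163 on imatinib and 0.0383, 0.0809 and 0.28 on vehicle, and varied more among vehicle libraries than between the groups (exact two-sided permutation test, p = 0.8).

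Both receptors were set against the markers of the cells that are known to carry them. Thy1, which T cells also express, made up 52.8% to 82.9% of the fibroblast list, so ratios are given without it. Per 1000 counts of the other 11 fibroblast markers, Pdgfra had 8.8, 8.12 and 13.4 counts on imatinib and 12, 9.25 and 14.5 on vehicle, a 1.79-fold range where its CPM ranged 8.28-fold (log2 difference -0.26, exact two-sided permutation test, p = 0.4). Pdgfrb had 78, 97.9 and 82.3 on imatinib and 314, 114 and 51.8 on vehicle, a 6.06-fold range (p = 0.7 by the same exact test). With Thy1 the log2 differences were 0.22 for Pdgfra and -0.04 for Pdgfrb (exact p = 0.8 and 1). Against the pericyte and smooth muscle list Pdgfrb had 995, 694 and 1662 counts per 1000 on imatinib and 389, 767 and 161 on vehicle, a 10.3-fold range in which imatinib 2 lay below vehicle 2 (exact p = 0.2).

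Of the marker sets tried, Pdgfrb varied least against the CD3 chains. Per 1000 counts of Cd3d, Cd3e and Cd3g, a ratio chosen after the data were seen, it had 66.1, 58.8 and 59 counts on imatinib and 50.2, 51.2 and 36.4 on vehicle, a 1.81-fold range where its CPM ranged 4.65-fold. The imatinib libraries still lay above the vehicle libraries, by 0.43 on the log2 scale (p = 0.1 by the exact two-sided permutation test). The genes most like Pdgfrb over the 6 libraries were Trgc4 (r = 0.998), a constant segment of the T cell receptor γ chain, Stat4 (0.997), a transcription factor of lymphocytes, and Gtf2h4 (0.995). Those most like Pdgfra were Glis2 (0.994), Svep1 (0.992) and C3 (0.99). These r describe 6 libraries in which the sums of T cell and of fibroblast markers were both higher on imatinib, with a median log2 fold change of 1.48 over the 11 fibroblast markers tested. Of these 11, edgeR called only Thy1, 7 had an unadjusted p under 0.05 and DESeq2 called 6, all higher. Over all genes, DESeq2 called 7.09% higher. In both directions together, 4639 of 16621 genes had an unadjusted edgeR p of up to 0.0365 and 6405 of up to 0.0882. The part of those markers in the levels of Pdgfrb and Pdgfra was not tested.

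**Figure D3:**
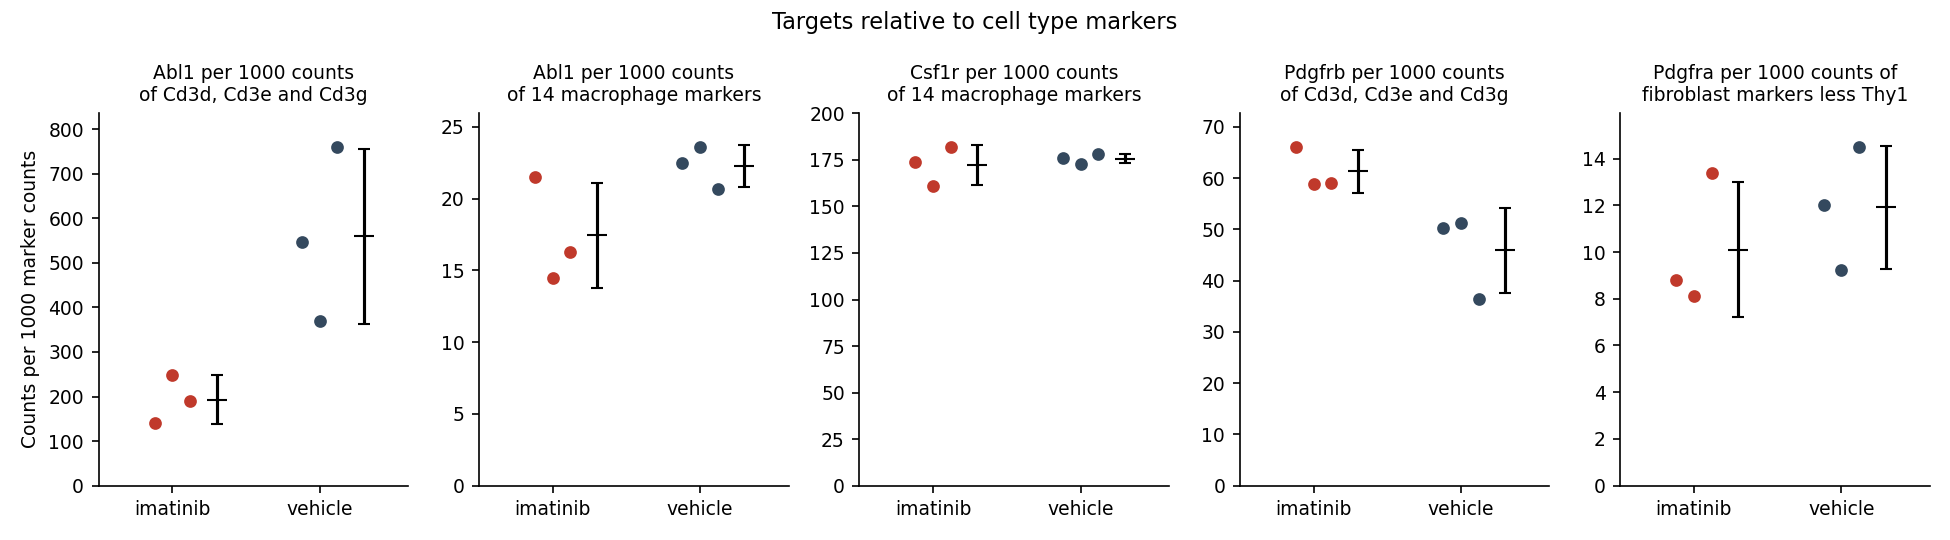
Counts of Abl1, Csf1r, Pdgfrb and Pdgfra per 1000 counts of the markers named above each panel (linear axes from 0), in imatinib libraries (red, left) and vehicle libraries (dark, right), with mean ± SD. Abl1 did not overlap between groups against the CD3 chains (140 to 249 and 370 to 760) but did against macrophage markers, and Csf1r stayed at 161 to 182 counts in all 6 libraries.

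Of the 4 PDGF ligands, only Pdgfb passed the test, and it fell, where 8.42% of all genes fell. At an unadjusted p under 0.05, 2 ligands were lower and 0 higher, and DESeq2 called 1 lower and 0 higher. Pdgfb, the ligand that binds both receptors, was at 81.9, 118 and 108 CPM on imatinib, against 194, 173 and 183 CPM on vehicle. The groups stood well apart, and Pdgfb fell by 0.83 on the log2 scale (standard error 0.14, adjusted p = 0.0115), a call kept in 6 of 6 fits without 1 library. Pdgfa was at 5.42, 8.26 and 6.37 CPM on imatinib, against 11.6, 9.08 and 10.5 CPM on vehicle, without overlap (log2 fold change -0.64, adjusted p = 0.0887). Pdgfc and Pdgfd were at 0.316 to 7.75 CPM across the libraries, and had fold changes of -0.46 and 0.06 on the log2 scale (adjusted p = 0.47 and 0.968), the last of which was -0.78 on CD3 scaling (adjusted p = 0.473). Relative to the median of all genes on that scaling, Pdgfa, Pdgfc and Pdgfd lay at -0.63, -0.49 and -0.06. Of 13 genes of PDGF receptor signaling, only the kinase Src was called, as lower, near the 8.42% of all genes. Src was at 27.6, 41.1 and 39.2 CPM on imatinib, against 71.2, 53.4 and 61.1 CPM on vehicle (log2 fold change -0.78, adjusted p = 0.0231). The median of the list was 0.02. At an unadjusted p under 0.05, 2 were lower and 0 higher, and DESeq2 called 2 lower and 0 higher. Over all genes, DESeq2 called 9.7% lower and 7.09% higher. In both directions together, 4639 of 16621 genes had an unadjusted edgeR p of up to 0.0365 and 6405 of up to 0.0882. The adaptor Grb2 and the transcription factor Stat3, the most abundant of the list, were at -0.05 and 0.02 on the log2 scale (adjusted p = 0.791 and 0.919). The call of Src was lost without imatinib 3, vehicle 1 or vehicle 3 (adjusted p of up to 0.0775).

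Ddr1, the discoidin domain receptor of epithelia, on chromosome 17 from 35681567 to 35704621, was at 21, 12.9 and 12.8 CPM on imatinib, against 7.92, 6.27 and 8.27 CPM on vehicle. Every imatinib library was higher, imatinib 1 most, at 15.6 ± 4.7 and 7.48 ± 1.07 CPM (SD, n = 3 each). Ddr1 rose 2.08-fold (log2 fold change 1.06, 95% interval 0.51 to 1.61, standard error 0.24, adjusted p = 0.025). The call was lost without imatinib 1 (0.78, adjusted p = 0.0552), imatinib 3 (0.0525), vehicle 1 (0.0775), vehicle 2 (0.0888) or vehicle 3 (0.0613), and on CD3 scaling, where Ddr1 lay at 0.26 (adjusted p = 0.604), 0.98 above the median of all genes. Epithelial markers were also highest in imatinib 1 (711 CPM, against 330 and 323 CPM in imatinib 2 and 3 and 240, 298 and 508 CPM on vehicle). None of the 10 passed in edgeR, 1 had an unadjusted p under 0.05 and DESeq2 called 1. Over all genes, DESeq2 called 16.8%. In both directions together, 4639 of 16621 genes had an unadjusted edgeR p of up to 0.0365 and 6405 of up to 0.0882. Ddr1 had 29.6, 39.1 and 39.7 counts per 1000 counts of the epithelial markers on imatinib and 33, 21 and 16.3 on vehicle, with overlap (log2 difference 0.67, exact two-sided permutation test, p = 0.2, adjusted p = 0.45 over 9 ratios). The most counted marker, Cdh1, made up 14.6% to 50.5% of the list. Without it the ratios were 34.6, 55.4 and 52.9 on imatinib and 66.7, 29.6 and 20.7 on vehicle, with vehicle 1 highest (log2 difference 0.44, p = 0.6 by the same exact test). The part of the epithelial markers in the rise of Ddr1 was not tested.

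Ddr2, the collagen receptor of mesenchymal cells, on chromosome 1 from 169972307 to 170110762, was at 9.99, 2.77 and 8.69 CPM on imatinib, against 1.22, 4.32 and 2.15 CPM on vehicle. Imatinib 2 lay below vehicle 2, and the log2 fold change of 1.48 had the widest interval of the set (0.12 to 2.85) and did not pass the test (adjusted p = 0.131). It passed without imatinib 2 (1.85, adjusted p = 0.034). Per 1000 counts of fibroblast markers other than Thy1, Ddr2 had 13, 7.1 and 14.4 counts on imatinib and 15, 15.2 and 8.63 on vehicle, with overlap (log2 difference -0.20, or 0.28 with Thy1, exact p = 0.5 for both). Counts of Ddr1 per count of Ddr2 were 2.1, 4.66 and 1.48 on imatinib and 6.47, 1.45 and 3.84 on vehicle, which overlapped as well (exact two-sided permutation test, p = 0.8). The genes most like Ddr1 were Ak3 (r = 0.995), Tma7-ps (0.993) and Rps19-ps6 (0.992), the last 2 of them pseudogenes whose reads may belong to their parent genes, and those most like Ddr2 were Scube1 (0.999), Aoc1 (0.995) and Tead3 (0.993).

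Collagens are the ligands of both DDRs. Of 9 collagen genes, 7 were tested and none passed in edgeR, with log2 fold changes of 0.32 to 1.71 around a median of 1.11. Of these, 3 had an unadjusted p under 0.05 and DESeq2 called 3, all higher, and Col2a1 was at 0 in every library. Over all genes, DESeq2 called 7.09% higher. In both directions together, 4639 of 16621 genes had an unadjusted edgeR p of up to 0.0365 and 6405 of up to 0.0882. Col1a2 was at 221, 85.5 and 178 CPM on imatinib, against 19.1, 61.5 and 67.8 CPM on vehicle (log2 fold change 1.71, adjusted p = 0.149). Col3a1 was at 205, 114 and 129 CPM on imatinib, against 20.8, 89.8 and 61.3 CPM on vehicle (log2 fold change 1.38, adjusted p = 0.2). Both were without overlap, with vehicle 1 the lowest library, which was also the lowest for Pdgfra and Ddr2. Col1a2 and Col3a1 are also on the fibroblast list, so their values are not separate from those of that list.

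Nqo2, the target that is not a kinase, on chromosome 13 from 33964687 to 33988443, was at 22.6, 27.6 and 16.6 CPM on imatinib, against 19.1, 16.5 and 18.1 CPM on vehicle. The vehicle libraries lay close together, at the low end of the wider range of the imatinib libraries. The log2 fold change of 0.31 did not pass the test (95% interval -0.12 to 0.75, adjusted p = 0.304) and was -0.40 on CD3 scaling (adjusted p = 0.381), 0.32 above the median of all genes there. Serpinb6a, on the opposite strand, shares 762 exonic bases (18.9%) with Nqo2 and had 496 to 2060 counts, against 364 to 558 of Nqo2, and without a known strand setting their reads cannot be told apart there. Of the 6 quinone and carbonyl reductases and related flavoenzymes including Nqo2, only Cbr1 passed the test, as higher, where 6.15% of all genes rose. At an unadjusted p under 0.05, 4 were higher and 0 lower, and DESeq2 called 1 higher and 0 lower. Over all genes, DESeq2 called 7.09% higher. In both directions together, 4639 of 16621 genes had an unadjusted edgeR p of up to 0.0365 and 6405 of up to 0.0882. The carbonyl reductase Cbr1 was at 23.8, 24.3 and 24.1 CPM on imatinib, against 14.5, 14.7 and 14.9 CPM on vehicle (log2 fold change 0.71, standard error 0.12, adjusted p = 0.0113). On CD3 scaling Cbr1 lay at -0.02 (adjusted p = 0.967), 0.70 above the median of all genes there. Cyb5r3 and Por, the most abundant of the list, lay at 0.30 and 0.36 (adjusted p = 0.101 and 0.0732), and at -0.45 and -0.36 on CD3 scaling, 0.27 and 0.36 above that median. The genes most like Nqo2 were Vps53 (r = 0.991), Gadd45gip1 (0.983) and Mrpl14 (0.97).

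Kit, the target for which imatinib was given, was measured beside the set. It was at 196, 61 and 142 CPM on imatinib, against 21.1, 20.7 and 19.6 CPM on vehicle (log2 fold change 2.70, standard error 0.43, adjusted p = 0.0173). All imatinib libraries were far higher, but with an SD of 67.9 CPM the call was lost without imatinib 3 (adjusted p = 0.0565), vehicle 1 (0.0653), vehicle 2 (0.07) or vehicle 3 (0.0721). Of 8 markers of GIST and interstitial cells of Cajal, a list that holds Kit, 4 rose, Kit among them, where 6.15% of all genes rose. The list summed to 364, 118 and 253 CPM on imatinib and 61.7, 53.2 and 65.7 CPM on vehicle. Kit was a large part of these sums, so their order among the imatinib libraries is not separate from that of Kit. The part of the other markers in the rise of Kit was not tested. The KIT ligand Kitl was at 7.91, 2.03 and 4.32 CPM on imatinib and 2.94, 2.59 and 5.77 CPM on vehicle (adjusted p = 0.702).

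**Figure D4:**
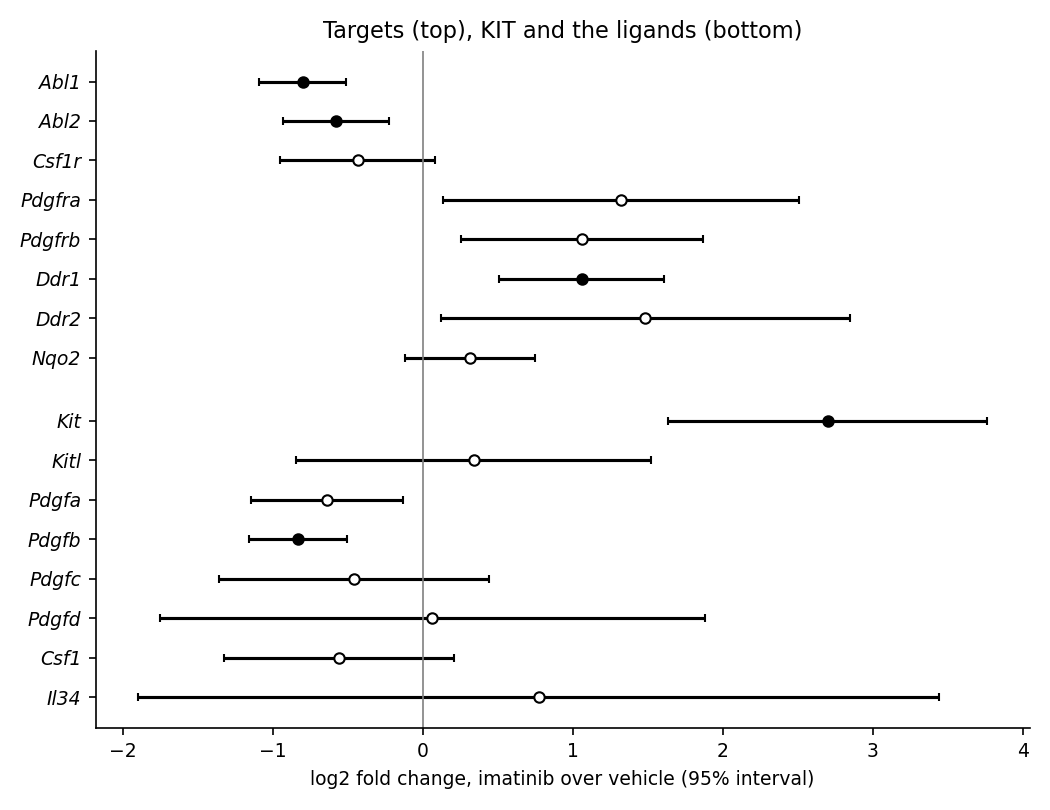
Log2 fold change of imatinib over vehicle with its 95% interval for the 8 targets (top) and for Kit and the ligands of KIT, the PDGF receptors and CSF1R (bottom), with filled points for genes past an adjusted p of 0.05. Abl1, Abl2 and Pdgfb lay below 0, and Ddr1 and Kit above.

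Other tyrosine kinases were measured in the same fit, and the set was not tested against them. Of 27 other receptor tyrosine kinases, 6 rose and 2 fell, where 6.15% of all genes rose and 8.42% fell, around a median of 0.33. At an unadjusted p under 0.05, 10 were higher and 3 lower. In both directions together, 4639 of all 16621 genes had an unadjusted edgeR p of up to 0.0365 and 6405 of up to 0.0882. DESeq2 called 8 higher and 3 lower, against 7.09% and 9.7% of all genes it tested. Epha2, an ephrin receptor, was at 2.94, 6.88 and 4.41 CPM on imatinib, against 38.2, 33.1 and 41.9 CPM on vehicle (log2 fold change -2.99, adjusted p = 0.00314). Ryk, a Wnt receptor, was at 16, 13.7 and 14.3 CPM on imatinib, against 7.14, 6.86 and 6.93 CPM on vehicle (log2 fold change 1.07, adjusted p = 0.00836). Both calls were kept in 6 of 6 fits without 1 library, and that of Ryk was lost on CD3 scaling (0.33, adjusted p = 0.518, 1.05 above the median of all genes there). Fgfr1 and Ret, receptors for fibroblast growth factors and for the GDNF family, rose by 1.79 and 2.11 on the log2 scale (adjusted p = 0.014 and 0.017). Of 26 other non-receptor tyrosine kinases tested, 2 rose and 2 fell, near the shares of all genes. At an unadjusted p under 0.05, 5 were higher and 10 lower, and DESeq2 called 2 higher and 5 lower. The myeloid kinase Fes fell (log2 fold change -0.96, adjusted p = 0.0271) like Src, and the T cell receptor kinase Zap70 and the cytokine receptor kinase Jak1 rose by 0.90 and 0.41 on that scale (adjusted p = 0.0306 and 0.0344), though on CD3 scaling Zap70 lay at 0.20 (adjusted p = 0.678) and Jak1 at -0.33 (adjusted p = 0.507), 0.91 and 0.39 above that median. The calls of Fgfr1, Ret, Fes, Zap70 and Jak1 held in 3, 5, 2, 1 and 1 of the 6 fits without 1 library.

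Leaving out a library moved the size of the fold changes but not their sign. Over the 6 fits Abl1 ranged from -0.88 to -0.70, Abl2 from -0.76 to -0.48, Csf1r from -0.58 to -0.21, Pdgfra from 0.92 to 1.74, Pdgfrb from 0.76 to 1.35, Ddr1 from 0.78 to 1.17, Ddr2 from 1.12 to 2.08 and Nqo2 from 0.11 to 0.48. Csf1r lay nearest to 0 without imatinib 1, the library with the lowest sum of macrophage markers, and Pdgfra and Ddr2 had their highest values without vehicle 3 and vehicle 2, the vehicle libraries in which each was highest. Abl1 was the only target called in every one of these fits.

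**Figure D5:**
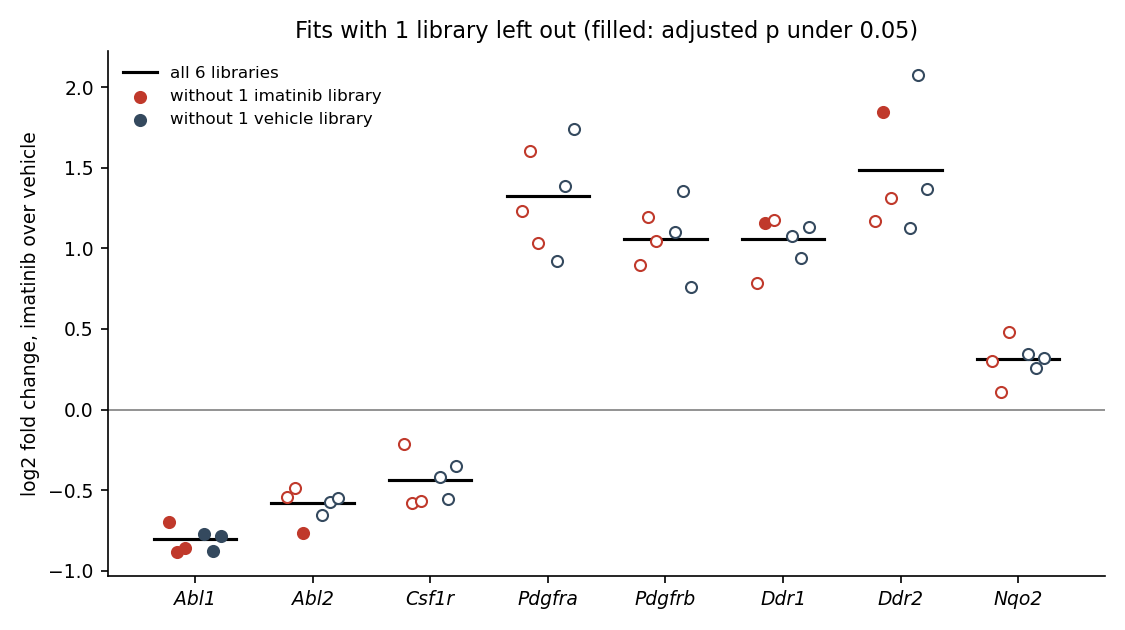
Log2 fold change of each target in the fit of all 6 libraries (black line) and in fits without 1 imatinib library (red) or without 1 vehicle library (dark), filled where the adjusted p was under 0.05. No target crossed 0, and Abl1, at -0.88 to -0.70, was filled in 6 of 6 fits.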

How the data were processed

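The authors aligned reads of 6 libraries to the mouse genome (mm10; the submitters' notes name GRCm38) with STAR and counted them with featureCounts. The deposited table holds raw counts per gene. The annotation and strand setting were not given in the sources used here. Of 57332 rows, 3016 without a name (0.118% to 0.158% of a library's counts) and 1013 exact repeats were left out and rows of 78 symbols were summed. Another 3 columns, which matched none of the 6 libraries, stayed unread. The table holds counts only.

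Genes passing edgeR's default filter were tested by robust quasi-likelihood (edgeR 4.0.16, R 4.3.3) on TMM-scaled counts with Benjamini-Hochberg adjustment. The standard error was the log2 fold change over the root of F. The spread between libraries had a coefficient of variation of 29.1%. No 2 libraries were alike within sampling noise (the lowest chi-square per gene was 34.1). The fit was tested on simulated data. CPM per kb used GENCODE M21 exon lengths. Ratios to markers were compared by exact permutation tests on the log2 scale with 0.5 counts added. The 8 targets, 21 gene lists, tests and naming rule (targets, ligands, up to 4 called members of a list or, where fewer than 2 were called, its 2 most abundant, and the 3 genes most like a target) were chosen with earlier results of these data known. Macrophage markers other than Lyz2 and Mrc1, C1qa among them, and Crkl, Col2a1, overlapping genes and Cbr1 and Thy1, each the lone call of its list, fall outside that rule and were picked once values were known. Promoters came from RefSeq, where 6 of 8 targets had an entry.

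Alternatives were RLE factors, library totals, CD3 counts as the scale, no filter and a stricter filter (at least 1 CPM in 3 libraries), exact repeats kept, DESeq2 1.42.0, voom with quality weights (limma 3.58.1), a replicate block, each library left out in turn, and, for ratios, 1 count added and lists without their most counted gene.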

Additional observations from a re-analysis of the deposited data

How the results depend on the processing

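Over all genes, edgeR called 2421 genes (1022 higher and 1399 lower). Scaling to CD3 counts gave 4813 calls (135 higher and 4678 lower, median of all genes -0.72), and library totals gave 763 higher and 1608 lower, which moved the share of higher calls to 32.2%, against 42.2% with TMM. Leaving out 1 library gave 733 to 2951 calls, with the fewest without vehicle 3 and the most without imatinib 2. DESeq2 called 3404 genes (1438 higher and 1966 lower of 20269). Of the 8 targets, DESeq2 called 6 and fits without 1 library called 1 to 3, Abl1 in each. Same-numbered libraries did not deviate together (correlations of -0.21, -0.057 and -0.064), so the numbers were not taken to pair the libraries. With the replicate number as a block 610 genes and 1 target (Abl1) were called, and Abl2 and Ddr1 had adjusted p = 0.0779 and 0.0635. For the targets and Kit, 112 of the alternative fold changes kept their side of the threshold, 5 passed it and 18 lost it, Kit among them with no filter on low counts (2.68, adjusted p = 0.0504). No called value changed sign. Of the ratios to markers and between related targets, 94 moved by less than the spread between libraries and 2 by more, those of Abl1 and Abl2 on the macrophage list. Why calls were gained or lost was not tested, nor was the part of the smaller number of libraries where 1 was left out. Depth limits Pdgfra and Ddr2, with 24 to 221 counts per library.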
